A study of Mus musculus with 30 samples.

Results

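Ribosomal protein gene ends were the open-chromatin peaks no more than 1 kb from the start or the end of a gene for a ribosomal protein. The genes were taken by symbol from RefSeq on GRCm38: protein-coding genes named Rpl or Rps followed by a digit, with Rplp0, Rplp1, Rplp2 and Rpsa, and without the Rps6k kinases or symbols containing -ps. In all, 89 genes met this rule and 86 of them had at least 1 peak, while Rpl10l, Rpl32l and Rpl39l had none. These genes gave 169 peaks out of 257149 in the count table, and out of 26740 peaks at the ends of any protein-coding gene. All 169 were kept by the filter on low counts.

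The series measured open chromatin in 30 mice by ATAC-seq, which sequences the fragments that a transposase releases from accessible DNA. Each library came from the ventral hippocampus of 1 mouse, from which 50000 nuclei were used. The 8 handled mice at 0 min and the 7 handled mice at 45 min had been handled and never chronically restrained. The 8 chronically restrained mice at 0 min and the 7 at 45 min had been restrained in a tube on each of 10 days. All mice were then housed singly for 24 hours, and the mice at 0 min were taken from the home cage, whereas the mice at 45 min were taken 45 min into a single acute restraint. Both sexes were present in every group: 4 females and 4 males in both groups at 0 min, 3 females and 4 males in the handled group at 45 min, and 4 females and 3 males in the chronically restrained group at 45 min. Strain and age are not among the labels used here. The libraries fell into 4 batches, each holding all 4 groups.

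Total counts ran from 26104576 to 55294838 per library. Peaks were found at the ends of all 5 excitatory neuron marker genes examined, and the Slc17a7 peak, at the gene for a vesicular glutamate transporter, had 174.6 CPM (counts scaled to the TMM-adjusted total of each library). Among marker genes of neurons, glia, vessels and choroid plexus, 0 peaks passed the test used for the members (edgeR, adjusted p under 0.05) in the acute or the chronic comparison. Of all tested peaks, 0.116% passed in the acute and 0.0% in the chronic comparison, so 0 is no result about the markers. At an unadjusted p under 0.05, 2 of 9 peaks of oligodendrocyte, 1 of 4 of oligodendrocyte precursor and 1 of 5 of vascular markers were found in the acute comparison, against 7.17% of all tested peaks. In the chronic comparison, 1 of 9 neuron and 2 of 9 oligodendrocyte marker peaks were found, against 5.44%. No peak lay at the ends of Ttr or Folr1, which mark the choroid plexus. Kl, also on that list, had 2 peaks, at 3.38 and 3.09 CPM per kb. Of 6 marker genes of other tissues, 3 had peaks, the highest with 54.6 CPM at Apoa2. 1 library, from a handled female at 0 min in batch 4 (animal 45), stood apart: 42.1% of its counts lay at gene ends, against 37.7% to 40.3% in the other 29 libraries. The median changes of the members, the counts of all tested peaks that passed and the signs at start sites are given with and without it. Fits of single batches or of females alone were not repeated without it. Since whole tissue was used, fewer cells of a type and less open chromatin per cell cannot be told apart in any of the values.

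Ribosomal proteins assemble with ribosomal RNA into the large (Rpl) and small (Rps) subunits of the ribosome, the machine that translates mRNA into protein in every cell. Their genes are among the most strongly transcribed in mammalian cells, and their promoters are known for CpG-rich sequence, a pyrimidine tract at the start site and the lack of a classical TATA box. In the brain, ribosomal protein mRNAs are found in neuronal processes as well as in the soma, and translation through the mTOR pathway is regulated by neuronal activity and stress.

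Promoter sequences on the GRCm38.p6 table of RefSeq matched 69 of the 89 genes and gave their start sites and strands. Of these, 58 were counted as standard subunit genes, among them the paralog Rpl36al, and 11 are other paralogs, retrotransposed copies or genes that only carry the name. The start site lay inside a peak for 58 of the 58 standard genes and for 6 of the 11 others, together 64 of 69 genes (92.8%), compared with 11489 of 17423 other genes (65.9%). The start sites outside any peak belonged to Rpl10l, Rpl32l, Rpl39l, Rps23rg1 and Rps27rt. The standard gene with the highest peak over its start was Rps13, a small-subunit protein, at 11.8 CPM per kb of peak (chr7:116333477-116335069). One of the lowest was over the start of Rpl3l, the striated-muscle paralog of Rpl3, at 3.37 CPM per kb (chr17:24727296-24728876). Both promoters are printed 5′ to 3′ from 250 bases before the start site to its base 20, with every CG dinucleotide in capitals, to show the contrast in CpG content: 20 for Rps13 (chr7:116334171-116334440, minus strand) and 2 for Rpl3l (chr17:24727576-24727845, plus strand).
Rps13: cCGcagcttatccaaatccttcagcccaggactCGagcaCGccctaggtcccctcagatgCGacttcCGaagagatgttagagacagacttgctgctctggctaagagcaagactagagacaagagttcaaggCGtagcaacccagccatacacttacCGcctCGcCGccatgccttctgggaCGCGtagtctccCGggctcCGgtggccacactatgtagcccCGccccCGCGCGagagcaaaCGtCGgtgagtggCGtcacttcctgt
Rpl3l: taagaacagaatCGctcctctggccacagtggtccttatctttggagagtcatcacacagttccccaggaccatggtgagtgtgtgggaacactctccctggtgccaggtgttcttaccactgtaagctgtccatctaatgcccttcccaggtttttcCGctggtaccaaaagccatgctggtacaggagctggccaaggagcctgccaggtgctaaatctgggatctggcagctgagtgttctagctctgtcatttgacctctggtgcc

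Over the 300-base windows, from 250 bases before the start to 50 from it, the median ratio of observed to expected CpG was 0.906 in the 58 standard genes. It was 0.751 in the 11489 other genes whose start lay in a peak, and 0.643 in the 11 remaining genes of the rule. Rps13 itself had a ratio of 0.849, below the median of the standard genes. A relation of CpG content to peak level was not tested.

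The pyrimidine tract is shown for 6 genes from 20 bases before to 20 bases from the start site, with the motif CTTTC in capitals. The motif occurred on the sense strand within 25 bases either side of the start in 17 of 58 standard genes (29.3%), against 4.71% of the other genes with a start in a peak. Its longer form CTCTTTC, which contains it, occurred in 10.3% against 0.531%. These windows are Rpl15 (chr14:18270967-18271006, minus strand), Rpl28 (chr7:4792945-4792984, plus strand), Rpl35 (chr2:39005112-39005151, minus strand), Rpl38 (chr11:114668560-114668599, plus strand), Rplp2 (chr7:141447631-141447670, plus strand) and Rps10 (chr17:27635225-27635264, minus strand).
Rpl15: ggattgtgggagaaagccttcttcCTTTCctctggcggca
Rpl28: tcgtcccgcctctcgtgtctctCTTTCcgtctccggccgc
Rpl35: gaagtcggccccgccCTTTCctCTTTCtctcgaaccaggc
Rpl38: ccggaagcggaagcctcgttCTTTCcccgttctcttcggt
Rplp2: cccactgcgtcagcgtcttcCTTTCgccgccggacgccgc
Rps10: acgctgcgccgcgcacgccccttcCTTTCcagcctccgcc

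Other motifs were searched on both strands of the 300-base windows, except TATAAA, which was searched on the sense strand. CCGGAAG, the core bound by Ets-family factors such as GABP, was found in 39.7% of the standard genes and in 16.6% of the other genes with a start in a peak. The palindrome CTCGCGAG was found in 6 of 58 (10.3%), those of Rpl12, Rpl26, Rpl27a, Rps6, Rps19 and Rps28, against 1.80%. GGGCGG, the core of Sp1 sites, occurred in 60.3% against 64.9%, and TGACGTCA, the full cAMP response element, in 8.62% against 3.19%. AAGATGGC, the core of YY1 sites, was present in 6.90% against 4.27%, and GCATGCGC, a core of NRF1 sites, in 3.45% against 5.20%. TATAAA in the 50 bases before the start was found in 0 of 58 standard genes and in 1.5% of the others. The hexamer TGTTCT of the glucocorticoid receptor was found in 8 of 58 (13.8%) and in 11.6%. A match is a string of letters and not a measured binding site. The windows of Rps19 (chr7:24884532-24884611, plus strand), Rpl26 (chr11:68901506-68901585, plus strand) and Rpl37 (chr15:5116553-5116632, plus strand) are printed from 60 bases before to 20 bases from the start, with CCGGAAG and CTCGCGAG in capitals.
Rps19: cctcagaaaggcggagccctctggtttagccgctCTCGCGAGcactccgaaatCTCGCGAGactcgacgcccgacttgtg
Rpl26: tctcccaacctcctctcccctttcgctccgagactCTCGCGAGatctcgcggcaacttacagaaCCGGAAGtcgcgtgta
Rpl37: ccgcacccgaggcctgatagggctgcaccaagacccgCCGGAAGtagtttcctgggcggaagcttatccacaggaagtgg

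The pair Rps27 and Rps27rt shows where a copy parted from its parent. Rps27 encodes a small-subunit protein, and its start lay in a peak of 4.32 CPM per kb. Rps27rt, its retrotransposed copy, had no peak over its annotated start, and its nearest peak, beside the start, was at 3.41 CPM per kb. The longest run shared by their 300-base windows is 38 bases and begins at base 2 of the annotated transcript of Rps27 and at base 1 of that of Rps27rt. Capitals mark the part of the run that is printed for both genes. The last printed base of Rps27rt, in lower case, also belongs to the run. Printed are the bases from 60 before to 25 from the start of Rps27 (chr3:90213624-90213708, minus strand) and Rps27rt (chr9:114982715-114982799, minus strand). Fragments from such near-identical copies could be counted at either place, since the treatment of multiply mapping reads is not given in the sources used here.
Rps27: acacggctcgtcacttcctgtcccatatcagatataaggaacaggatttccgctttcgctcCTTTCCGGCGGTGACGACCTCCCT
Rps27rt: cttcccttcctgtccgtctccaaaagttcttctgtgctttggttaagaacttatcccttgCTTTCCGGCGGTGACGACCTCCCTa

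By place, 64 of the 169 peaks covered a start site of their gene, 12 lay near one without covering it, 60 lay at the far end and 33 belonged to the 20 genes whose start is not known here. The genes held 1 peak in 35 cases, 2 in 23, 3 in 23 and 4 in 5. Another protein-coding gene ended within 1 kb of 70 of the 169 peaks (41.4%), so the counts of those peaks belong to more than 1 gene. Beyond 10 kb in width were 27 of 169 peaks (16%), against 4.28% of the other gene ends, and 18 of the 64 over a start site (28.1%), against 7.65% of other peaks over a start site.

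Levels were compared per kb of peak, since the peaks differed in width. The median level of the 169 peaks was 4.56 CPM per kb, and that of the 26571 other gene ends was 3.41. The median ratio of the 30 single libraries was 1.31, and it lay between 1.24 and 1.38 in every library. Over start sites the difference was smaller, with a median of 6.21 CPM per kb in 64 peaks against 5.69 in 10937 others. Peaks at far ends had a median of 2.97 CPM per kb and those near a start site 2.67, while peaks of genes with an unknown start had 5.25. Peaks within reach of another gene had a median of 5.41 CPM per kb, and those near no other gene 3.37. Among the other gene ends the same medians were 4.81 and 3.25, so that for peaks near no other gene the ratio of members to others was 1.04, a comparison added after the data were seen. These are descriptions without a test, since peaks are not replicates.

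**Figure D1:**
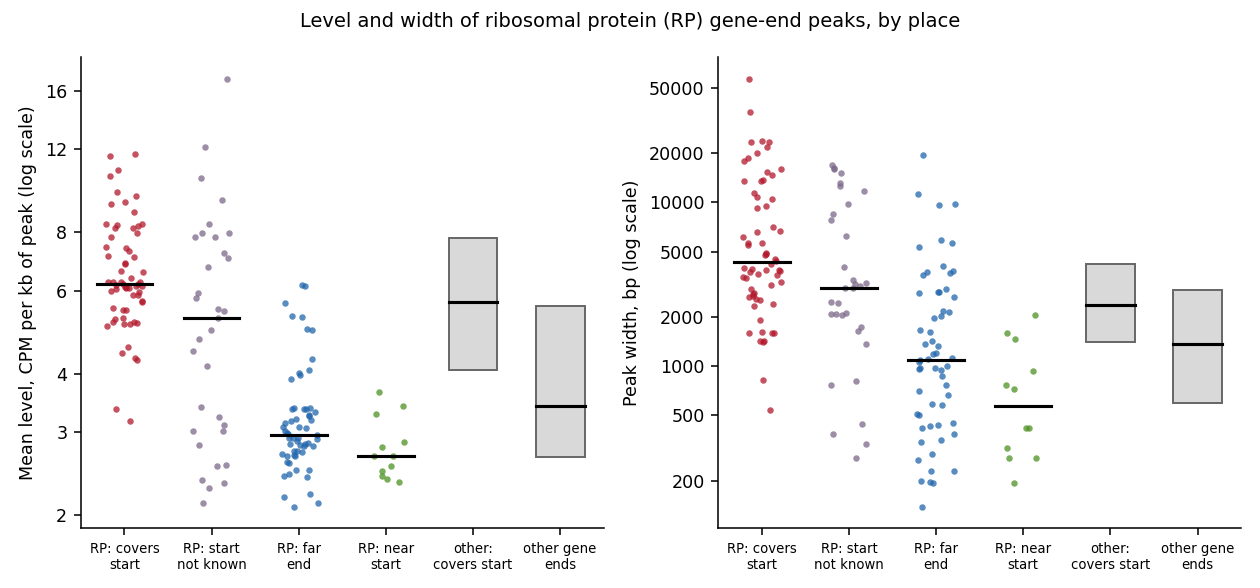
Mean level in CPM per kb of peak (left, log scale) and peak width in bp (right, log scale) of the 169 ribosomal protein gene-end peaks by place, beside 10937 other peaks over a start site and 26571 other gene ends. Points are peaks, black lines are medians and grey boxes span the quartiles of the comparison sets; peaks over a start site have a median of 6.21 CPM per kb and those at a far end 2.97.

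The highest level per kb was at Rps29, which encodes a zinc-binding protein of the small subunit. Its peak (chr12:69156086-69160084) held 60.2, 66.4 and 105 CPM as the lowest, median and highest of the handled mice at 0 min. It held 61.9, 65.3 and 75.8 in the handled mice at 45 min, 61.8, 68.5 and 69.4 in the restrained mice at 0 min, and 56.6, 66.4 and 76.0 in the restrained mice at 45 min. The groups overlapped, and the value of 105 was that of animal 45. Per kb, Rps29 stood at 17.0 CPM, and Rps13 at 11.8, Rpl37 at 11.6 and Rpl36al at 10.9 were also among the 5 highest. The 5 lowest were a far-end peak of Rpl34 at 2.08, Rpl7 at 2.12, a far-end peak of Rps7 at 2.12, Rpl39 at 2.18 and a far-end peak of Rpl37rt at 2.22.

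The 3 widest peaks spanned several genes. The peak of Rplp2, which encodes a protein of the lateral stalk that recruits elongation factors, was 56669 bp wide with 347.6 CPM and ran over the ends of 8 other genes. The Rpl18 peak was 35336 bp wide with 325.1 CPM and also held the ends of Dbp, a clock-controlled transcription factor gene. The Rpl19 peak was 23725 bp wide with 144.3 CPM.

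In most genes with a peak of each kind, the start exceeded the far end, and genes without both were not compared. Both kinds of peak were present in 38 genes, and the level per kb was higher over the start in all 30 libraries for 33 of them. The median ratio of start to far end was 2.14 over the 38 genes, and the largest was 4.26 at Rpl36al, a paralog of Rpl36a. The start-site peak of Rpl36al also lies at Mgat2, so its counts belong to more than 1 gene. Rpl3l was the 1 gene in which the far end was higher in all 30 libraries, with a ratio of 0.549, and its far-end peak also lies at Msrb1. The direction differed between libraries in Rpl35a, Rpl37rt, Rpl4 and Rpl14. Without a test, these ratios describe 38 genes in the same 30 libraries.

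**Figure D2:**
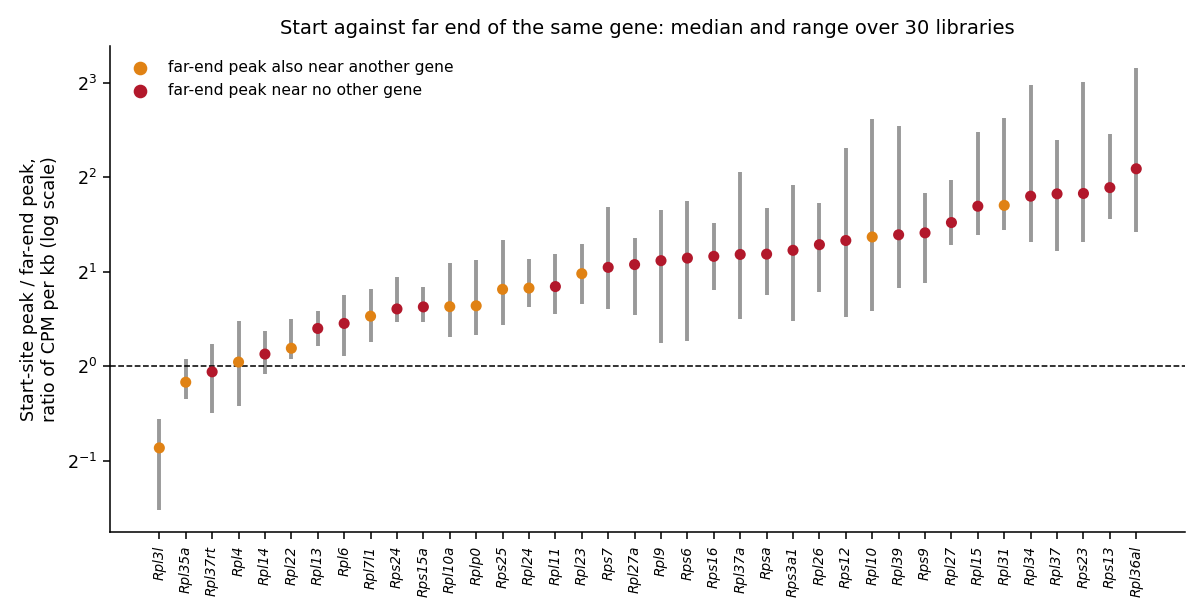
Ratio of the level per kb over the start site to that at the far end (log scale) for 38 ribosomal protein genes. Points are medians and bars the range over 30 libraries, and orange points mark far-end peaks also near another gene. Start-site peaks near another gene are not marked. In every library 33 genes lie above 1, and Rpl3l lies below 1.

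The spread between mice was small. Within groups, the median SD of log2 CPM was 0.143 over the 169 peaks and 0.185 over the other gene ends, of which counting error alone would give 0.059 and 0.102. The ratio of the medians of the total SD was 0.773. The steadiest members were Rpl3 (SD 0.052), which shapes the peptidyl transferase centre, the 9653-bp far-end peak of Rps25 (0.054), a protein used by viral internal ribosome entry sites, and Rplp2 (0.054). Rpl3 gave 66.8, 72.2 and 77.9 CPM as the lowest, median and highest in the handled mice at 0 min and 70.6, 72.1 and 74.9 in the handled mice at 45 min. In the restrained mice it gave 67.7, 71.4 and 76.2 at 0 min and 69.0, 71.8 and 76.2 at 45 min, so the 4 groups lay within the same range. The most variable members with a mean count of at least 50 were low peaks: Rps27rt ran from 1.16 to 3.09 CPM over the 30 libraries, Rps27a from 0.784 to 1.89, Rpl14 from 0.823 to 2.03, Rpl37rt from 1.5 to 3.42 and Rpl9 from 0.940 to 2.05.

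By role, the stalk genes are described first. Rplp0, the base of the stalk, had a start-site peak (chr5:115558314-115561767) of 8.25 CPM per kb. Its lowest, median and highest values were 24.7, 27.8 and 42.3 CPM in the handled mice at 0 min, 25.7, 27.4 and 33.4 in the handled mice at 45 min, 25.3, 28 and 31.2 in the restrained mice at 0 min, and 25.5, 27.1 and 31.3 in the restrained mice at 45 min. The groups overlapped almost wholly. The highest peak of Rplp1, the other stalk dimer partner of Rplp2, stood at 8.34 CPM per kb.

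Among small-subunit genes, the peak of Rps2, at the mRNA entry channel, was at 7.07 CPM per kb and that of Rps3, at the same channel, at 5.12. Rpsa, the gene of the small-subunit protein also known as the laminin receptor, was at 5.97. Rps6, the substrate of the S6 kinases downstream of mTOR, had 6.26, with lowest, median and highest values of 25.1, 27.2 and 35.5 CPM in handled mice at 0 min and 24.1, 26.9 and 30.6 at 45 min. In restrained mice Rps6 had 25.3, 27.4 and 30.3 CPM at 0 min and 25.3, 26.8 and 28.9 at 45 min, within the range of the handled mice. Rps14 was at 5.43 CPM per kb and Rps19, which is mutated in human Diamond-Blackfan anaemia, at 6.88. Rps27a, which encodes a fusion of ubiquitin with a small-subunit protein, was at 7.98, and the X-linked Rps4x at 5.09.

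Among large-subunit genes, Rpl5 and Rpl11, whose free proteins bind Mdm2 and thereby stabilise p53, had 6.26 and 5.06 CPM per kb over their starts. Rpl23, another Mdm2 binder, had 6.28, and Rpl26, which binds p53 mRNA, 7.99. Rpl4, a protein lining the exit tunnel, had 5.89 over its start and 5.66 at the far end near Snapc5. The X-linked Rpl10, a protein added late in subunit assembly, had 7.45. Rpl38, which is needed for translation of a subset of Hox mRNAs in mouse embryos, had 5.16. Rpl22 had 6.11 over its start and 5.30 in a 19465-bp far-end peak that also reaches Chd5.

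Paralogs differed widely over their starts. Rpl22l1, the paralog of Rpl22, had 10.5 CPM per kb, above Rpl22 itself, and Rpl7l1 had 7.41. Rps27l, a p53 target gene, had 6.21 and Rps19bp1, which encodes a binding partner of Rps19 and no subunit, had 6.6. Rpl37rt at 3.17 and Rpl3l at 3.37 lay below all 58 standard genes, which ran from 4.28 to 11.8 with a median of 6.20. The testis-expressed paralogs Rpl10l and Rpl39l had no peak at either end.

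**Figure D3:**
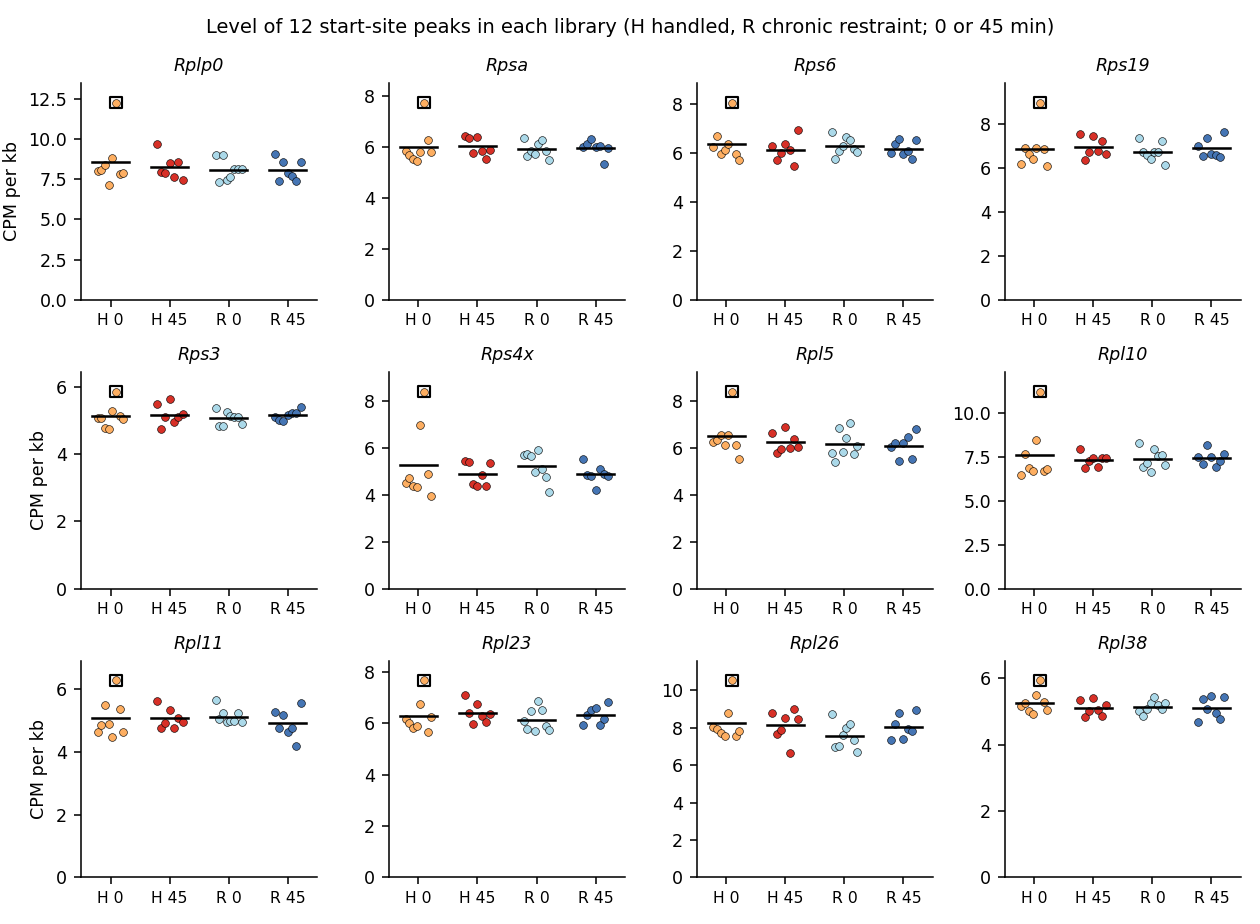
Level in CPM per kb of 12 start-site peaks in each of 30 libraries, by group (H handled, R chronically restrained, at 0 or 45 min). Points are mice, black lines are group means and the open square marks animal 45, which was the highest of all 30 libraries in each of the 12 panels; the other points of the 4 groups overlap.

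The acute comparison asked which peaks differed between mice 45 min into restraint and home-cage mice, averaged over both histories. Of the ribosomal protein gene-end peaks, 0 of 169 passed edgeR's quasi-likelihood test at an adjusted p under 0.05, where 0.116% of all 257143 tested peaks passed, a share at which 0 of 169 is no result about the members. At an unadjusted p under 0.05 there were 0 of 169 by edgeR and 0 by DESeq2, against 7.17% of all tested peaks by edgeR. Among the other gene ends the share by edgeR was lower, at 4.87%. The median log2 change was -0.0020 over the 169 peaks and 0.0037 over the other gene ends, and 82 of the 169 were positive. Without animal 45 these medians were 0.012 and 0.015, and 681 of all tested peaks passed in place of 299. Single changes lay between -0.16 and 0.23. The 95% interval of the change lay within 0.1 of 0 on the log2 scale for 37 peaks, within 0.2 for 123 and within 0.5 for 168, so for 1 peak a change of 0.5 was inside the interval. Within batches 1 to 4, the median change of the members was 0.014, -0.00068, 0.014 and -0.030.

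In Rplp0 the fitted acute change was -0.0098 ± 0.049 (SE). The smallest p among positive changes belonged to a far-end peak of Rpl13, a large-subunit protein, with 13.2, 13.6 and 15.6 CPM in handled mice at 0 min and 14, 14.7 and 16.8 at 45 min. In restrained mice it had 14, 15.0 and 16 CPM at 0 min and 13.6, 15.7 and 17.2 at 45 min, and the groups overlapped. Its log2 change was 0.078 ± 0.043 (adjusted p = 0.747). Next came a 768-bp peak of Rplp1 (0.15 ± 0.087, adjusted p = 0.763) and a 197-bp far-end peak of Rps6 (0.23 ± 0.13, adjusted p = 0.766).

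On the negative side the smallest p was that of a 669-bp far-end peak of Rpl37, a zinc-finger protein of the large subunit. Its lowest, median and highest values were 1.71, 2.44 and 2.95 CPM in handled mice at 0 min, 1.57, 2.25 and 2.46 in handled mice at 45 min, 1.99, 2.26 and 2.83 in restrained mice at 0 min, and 1.84, 2.11 and 2.40 in restrained mice at 45 min. All 4 ranges overlapped, and the log2 change was -0.15 ± 0.084 (adjusted p = 0.738). The start-site peak of Rps9, a small-subunit protein, followed at -0.089 ± 0.051 (adjusted p = 0.761), and then a 1060-bp far-end peak of Rpl10 at -0.13 ± 0.081 (adjusted p = 0.797).

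The acute change was also taken in each history. In handled mice 0 of 169 peaks passed by edgeR, where 0.0109% of all tested peaks passed (0.00972% higher and 0.00117% lower), and 5 had an unadjusted p under 0.05 by edgeR and 5 by DESeq2. In chronically restrained mice 0 of 169 passed, where 0.00272% of all tested peaks passed, and 3 had an unadjusted p under 0.05 by each tool. The background at this unadjusted threshold was 5.52% and 4.73% of all tested peaks, and 3.75% and 3.33% of the other gene ends. Without animal 45, 108 of all tested peaks passed in handled mice in place of 28, and 47 in restrained mice in place of 7. The median member change was -0.0039 in handled mice with that library and 0.026 without it, and in restrained mice 0.0046 with it and -3.1e-05 without it. In handled mice the smallest p values belonged to the 768-bp peak of Rplp1 (0.28 ± 0.12), a far-end peak of Rpl27a (0.26 ± 0.13) and the 197-bp peak of Rps6 (0.35 ± 0.19) on the positive side, and to the start-site peak of Rpl34 (-0.12 ± 0.057), the 1060-bp peak of Rpl10 (-0.23 ± 0.11) and a 445-bp peak of Rps27a (-0.29 ± 0.15) on the negative side. In restrained mice they included those of far-end peaks of Rps9 (0.19 ± 0.077) and Rpl6 (0.16 ± 0.073) on the positive side, and belonged to a far-end peak of Rpl31 (-0.40 ± 0.19), the start-site peak of Rpl22l1 (-0.092 ± 0.075) and a peak of Rpl7 (-0.23 ± 0.19) on the negative side. Adjusted p values were at least 0.840 in handled mice. Both comparisons used the same fit of all 30 libraries.

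Rpl10a, a large-subunit gene (chr17:28328471-28331033), lies on the same chromosome as Fkbp5, the glucocorticoid-induced chaperone gene (chr17:28398753-28486149). The values of both are given together, though the genes are not adjacent. The start-site peak of Rpl10a had 40.5, 43.0 and 50.8 CPM in handled mice at 0 min and 40.7, 44.6 and 47.5 at 45 min, and 38.7, 41.7 and 46.8 in restrained mice at 0 min and 40.9, 44.0 and 45.8 at 45 min. The value of 50.8 was that of animal 45. The acute change was 0.046 ± 0.037, and the groups overlapped. The gene-end peaks of Fkbp5 gave 0.24 ± 0.12 (adjusted p = 0.716) and 0.16 ± 0.046 (adjusted p = 0.170).

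Chronic restraint was compared with handling over both times. Again 0 of 169 peaks passed by edgeR, and 0.0% of all tested peaks did. An unadjusted p under 0.05 was found in 8 peaks by edgeR and 6 by DESeq2, and in 5.44% of all tested peaks. The median log2 change was -0.011 over the 169 peaks, against -0.015 over the other gene ends, and 69 were positive. Without animal 45 both medians turned, to 0.0041 and 0.00045. The member median was also positive with scaling to the other gene ends (0.00082), by the total count only (0.0035) and with the share of counts at gene ends as a covariate (0.0037). The interval lay within 0.2 of 0 for 117 peaks and within 0.5 for 164. By batch the median was 0.011, 0.0098, -0.0067 and -0.12 in batches 1 to 4, and batch 4 held animal 45.

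Rpl27, a large-subunit gene, had the smallest p of the chronic comparison. Its start-site peak (chr11:101441569-101445365) held 29.2, 32.6 and 45.1 CPM in the handled mice at 0 min and 30.1, 32.2 and 35.1 in those at 45 min. In the restrained mice it held 25.6, 30.9 and 32.3 at 0 min and 27.8, 30.0 and 34.1 at 45 min. The restrained mice were lower at the median, with overlap between histories at both times. The value of 45.1 was that of animal 45. The log2 change was -0.12 ± 0.042 with an unadjusted p of 0.0061 and an adjusted p of 0.897. Over the 64 start-site members, the median chronic change was -0.026 with animal 45 and -0.0036 without it.

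A 354-bp far-end peak of Rps7, another Mdm2-binding small-subunit protein, came next with 0.650, 0.779 and 1.07 CPM in handled mice at 0 min and 0.455, 0.867 and 1.15 at 45 min. Its values in restrained mice were 0.436, 0.700 and 0.859 at 0 min and 0.459, 0.650 and 0.895 at 45 min, which overlap the handled ones. The change was -0.32 ± 0.13 (adjusted p = 0.899). A far-end peak of Rpl24 followed with -0.13 ± 0.053 (adjusted p = 0.908). Positive changes with the smallest p were those of a 417-bp far-end peak of Rpl14 (0.22 ± 0.10), a 315-bp peak near the start of Rps24 (0.27 ± 0.13) and a 230-bp far-end peak of Rpl10 (0.26 ± 0.13), each with an adjusted p of 0.912.

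Taken at each time, the chronic comparison gave 0 of 169 passing peaks at 0 min and 0 at 45 min, with 0.0% of all tested peaks passing at either time. An unadjusted p under 0.05 was found in 8 members by edgeR and 6 by DESeq2 at 0 min, and in 2 by each tool at 45 min, where the shares over all tested peaks were 4.6% and 3.78%. At 0 min the smallest p values were those of Rpl31 (0.36 ± 0.18), Rpl27a (0.25 ± 0.12) and Rpl26 (0.15 ± 0.081) far-end peaks, and of Rpl27 (-0.15 ± 0.057), a far-end peak of Rps9 (-0.17 ± 0.075) and Rpl17 (-0.13 ± 0.058). At 45 min they were those of the 230-bp peak of Rpl10 (0.48 ± 0.19), a far-end peak of Rpl6 (0.15 ± 0.075) and the peak near the start of Rps24 (0.35 ± 0.18), and of Rpl17 (-0.12 ± 0.066), Rps7 (-0.32 ± 0.18) and a 194-bp far-end peak of Rpl23 (-0.38 ± 0.22). The median member change at 0 min was -0.015 with animal 45 and 0.019 without it, and at 45 min -0.012 and -0.0099. The 2 comparisons have no mice in common.

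The difference of the acute change between histories was tested as an interaction. None of the 169 peaks passed by edgeR, and 0.0% of all tested peaks did. Of the other gene ends, 2.14% had an unadjusted p under 0.05. An unadjusted p under 0.05 was reached by 1 member by each tool, a far-end peak of Rps9, at 0.22 ± 0.11 (unadjusted p = 0.0436), against 3.03% of all tested peaks. Its lowest, median and highest values were 5.39, 6.25 and 7.12 CPM in handled mice at 0 min and 5.26, 5.93 and 6.97 at 45 min, against 5.12, 5.41 and 5.98 in restrained mice at 0 min and 5.56, 6.34 and 7.15 at 45 min. The restrained mice at 0 min lay lowest, and all groups overlapped. Rpl6 (0.19 ± 0.10) and Rpl10 (0.45 ± 0.26) followed on the positive side, and Rpl31 (-0.47 ± 0.27), Rplp1 (-0.26 ± 0.17) and Rpl27a (-0.26 ± 0.18) on the negative side. The median over the members was 0.0094 with animal 45 and -0.027 without it. For the interaction the interval lay within 0.2 of 0 in 51 peaks, so differences of that size were not detectable in most.

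Females were compared with males over all groups. In this comparison 0 of 169 peaks passed by edgeR, where 0.035% of all tested peaks passed (0.0327% higher in females and 0.00233% lower), and 7 had an unadjusted p under 0.05 by edgeR and 5 by DESeq2, against 5.37% of all tested peaks. The median log2 difference, female minus male, was 0.027 over the 169 peaks and 0.027 over the other gene ends. Without animal 45 these medians were 0.010 and 0.012. The member median was 0.0023 with scaling to the other gene ends, 0.0058 by the total count only and -0.0065 with the share of counts at gene ends as a covariate. By batch it was -0.0011, 0.044, -0.032 and 0.12.

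Rpl15, a large-subunit gene, had the smallest p. Its start-site peak held 31.8, 35.5 and 52.9 CPM as the lowest, median and highest of 15 females and 28.8, 33.6 and 38.7 in 15 males, which overlapped. The value of 52.9 was that of animal 45. The difference was 0.12 ± 0.044 with an adjusted p of 0.906. Over the 64 start-site members, the median difference was 0.034 with animal 45 and 0.010 without it. The 1060-bp far-end peak of Rpl10 followed, with 2.45, 3.05 and 3.59 CPM in females and 1.87, 2.70 and 3.42 in males, a difference of 0.20 ± 0.080 (adjusted p = 0.910). The third was the peak near the start of Rps27rt at 0.16 ± 0.076. Higher in males at the smallest p were a 417-bp peak near the start of Rpl37a (-0.20 ± 0.11), a far-end peak of Rpl35a (-0.12 ± 0.083) and the far-end peak of Rps7 (-0.18 ± 0.13).

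Rpl10, Rpl39 and Rps4x are among the members on the X chromosome, where 8 peaks lie. Of these, 7 had a positive female minus male difference, the median was 0.11 and 0 passed. The 537 other gene ends on the X chromosome had a median of 0.13, 95.9% were positive and 14 passed. A difference of the acute change between the sexes was found in 0 of 169 peaks by edgeR, where 0.000389% of all tested peaks passed, and 4 had an unadjusted p under 0.05, against 3.72% of all tested peaks. DESeq2 was not run for it. The median of this difference over the members was -0.036 with animal 45 and -0.0085 without it. The smallest p values belonged to far-end peaks of Rps25 (0.33 ± 0.14), Rpl11 (0.22 ± 0.10) and Rpl39 (0.45 ± 0.23), and to start-site peaks of Rpl39 (-0.20 ± 0.10) and Rpl27a (-0.16 ± 0.080) and a peak of Rps27a (-0.18 ± 0.088).

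**Figure D4:**
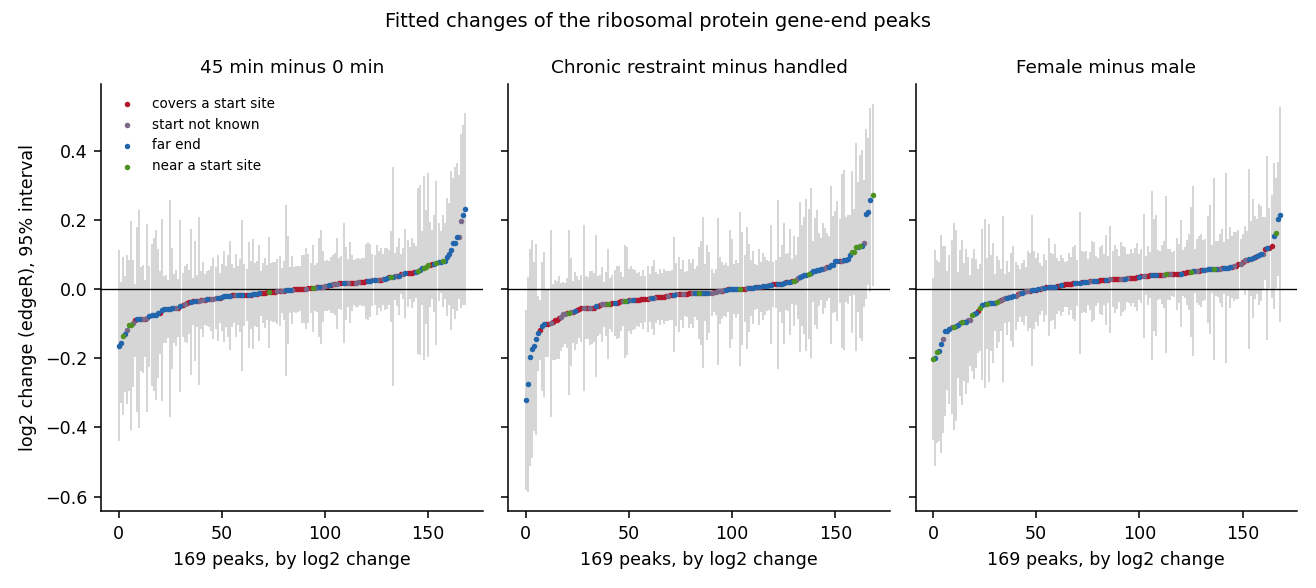
Fitted log2 change of each of the 169 peaks with its 95% interval for 45 min minus 0 min, chronic restraint minus handled and female minus male, ordered by size and coloured by place. The acute changes lie between -0.16 and 0.23, and 0 of 169 passed the test in any of the 3 panels.

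Most start-site peaks of the family were highest in the same library. In animal 45, 61 of the 64 were the highest of all 30 libraries (95.3%), against 72.5% of other peaks over a start site, 7 of the 60 members at far ends and 21.4% of all peaks. The 3 exceptions were Rpl3l, Rpl37rt and Rpl6. Summed over the members, this library had 6071 CPM, while the other 29 ran from 4776 to 5432. Its TMM factor was 0.875, against 0.971 to 1.03 in the others, and a lower factor raises every CPM value of a library. As a share of total counts, without TMM, the members held 0.531% in this library and 0.491% to 0.527% in the others. As a share of all counts at gene ends, however, the members held 1.26% in this library, the lowest of 30, with 1.28% to 1.33% in the others.

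The signs of the start-site changes differed with and without that library, and also between batches that do not hold it. With all 30 libraries, 59 of 64 start-site members had a positive female minus male difference, 12 a positive chronic change, 32 a positive acute change and 44 a positive interaction. Changes of other peaks over a start site were summarised only for the 9697 of 10937 that lay within 2 kb of a gene end. Of these 9697, 85.4% had a positive sex difference, 22.3% a positive chronic change, 45.0% a positive acute change and 49.8% a positive interaction. Without animal 45 the 64 gave 42, 29, 49 and 14. With the share of counts at gene ends as a covariate they gave 20, 28, 24 and 53. With scaling to the other gene ends, 45 of 64 had a positive sex difference and 19 a positive chronic change. Within batches 1 to 4, the sex difference was positive in 29, 60, 9 and 62 of the 64 and the chronic change in 37, 30, 36 and 1. In females alone 3 of 64 had a positive chronic change and in males alone 51. The females include animal 45, a handled mouse, and a fit of females without animal 45 was not run. The difference between the sexes was not tested.

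The gap between start-site and far-end members was computed for each library as the difference of their mean log2 CPM. It ranged from 3.02 to 3.59 in handled mice at 0 min, with a mean of 3.18 ± 0.18 (SD, n = 8). The means were 3.15 ± 0.083 in handled mice at 45 min (n = 7), 3.14 ± 0.077 in restrained mice at 0 min (n = 8) and 3.13 ± 0.092 in restrained mice at 45 min (n = 7), so the group means lay closer together than the mice within a group. Across the 30 libraries, the gap rose with the share of counts at other gene ends (Pearson's r = 0.903, Spearman's rho = 0.790, permutation p = 1e-05 for both, the smallest that 100000 permutations can give, adjusted p = 5e-05). Without the 2 libraries farthest from the median share, animal 45 and animal 1 of the handled group at 45 min, r was 0.757. Without animal 45 alone r was 0.802 and rho 0.768. Within batches 1 to 4 r was 0.911, 0.847, 0.896 and 0.935 with rho of 0.881, 0.881, 0.762 and 0.486 (n = 8, 8, 8 and 6, exact permutation p for r of 0.00146, 0.00836, 0.00357 and 0.05, adjusted over 10 values to 0.00487, 0.0119, 0.00893 and 0.0556). The members and the other gene ends share libraries and depth, and no cause of the relation was tested.

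**Figure D5:**
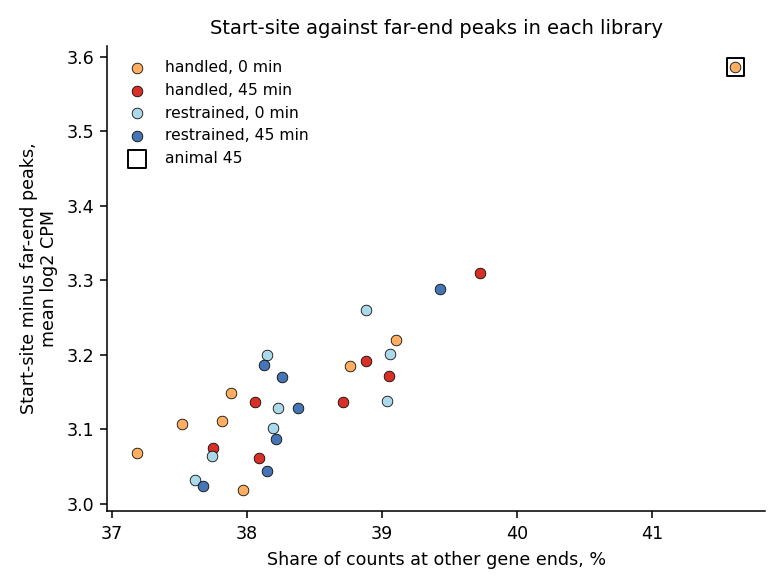
Mean log2 CPM of the 64 start-site members minus that of the 60 far-end members in each of 30 libraries, against the share of counts at other gene ends in percent. Each point is a library, colours are groups and the open square is animal 45 at 3.59; the 4 groups are intermixed and r is 0.903 over all libraries.

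Other genes of ribosome production and control were read the same way, as peaks within 1 kb of either end. For the acute comparison, 3 of 8 gene-end peaks of the glucocorticoid targets Fkbp5, Fam107a, Sgk1 and Plin4 rose by edgeR's test. They were peaks of Sgk1 (0.51 ± 0.068, adjusted p = 6.7e-06), Fam107a (0.49 ± 0.11, adjusted p = 0.037) and Plin4 (0.27 ± 0.035, adjusted p = 2.4e-06). Among 166 peaks of mitochondrial ribosomal protein genes 1 rose, at Mrps23 (0.23 ± 0.050, adjusted p = 0.0252). None passed among 86 peaks of proteasome subunit genes, 37 of translation factors with terminal oligopyrimidine mRNAs such as Eef2, 94 of ribosome assembly and RNA polymerase I genes such as Ubtf, 40 of the mTOR branch and 8 of the Mdm2 and p53 branch. Of all tested peaks 0.116% passed, 0.0731% higher, a share at which 0 in lists of this size is no result about those genes. At an unadjusted p under 0.05 these lists held 7, 5, 1, 2, 1 and 0 peaks, in the order mitochondrial, proteasome, translation factor, assembly, mTOR and p53. The share over all tested peaks at this threshold was 7.17%. For chronic restraint, 0 passed in any of these lists, and 0.0% of all tested peaks did. The median level was 4.18 CPM per kb at mitochondrial ribosomal protein genes, 4.14 at proteasome genes, 4.04 at translation factor genes, 4.26 at assembly genes, 3.57 at mTOR genes and 2.81 at the p53 branch, beside 4.56 for the ribosomal protein gene ends.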

How the data were processed

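The deposited file held raw counts, whole numbers per peak region, for 1 set of regions common to all libraries; 2 further columns matched no sample and were not used. Per the submitters' processing notes, the authors used Trimmomatic, Bowtie2, Picard and Genrich 0.6.1 on GRCm38. How regions were merged over libraries, the counting tool, and whether reads, fragments or insertions were counted are not given in the sources used here.

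Counts were analysed with edgeR 4.0.16 in R 4.3.3. The filterByExpr function kept 257143 peaks. Scaling was by TMM. The quasi-likelihood model, with a robust prior, held the 4 groups, sex and batch. The difference of the acute change between sexes came from a model of group by sex cells with batch. F-tests were adjusted by Benjamini-Hochberg over all tested peaks, and a peak passed at an adjusted p under 0.05. Changes are log2, and each standard error is the size of the change divided by the square root of its F statistic. Intervals are 95% from a t distribution with 22 degrees of freedom, which can differ slightly from the F-test p values. DESeq2 1.42.0 was an alternative. Spreads and library means used log2 CPM with a prior count of 2. Other steps used Python 3.11.15, pandas 2.3.3 and scipy 1.17.1. The model was tested on simulated counts.

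Gene ends and start sites came from RefSeq tables on GRCm38, without exons. Strands and start sites were known for 69 of the 89 genes. The named members were those with the 3 smallest p in each direction of each comparison, the 5 highest and 5 lowest in CPM per kb, the 3 widest, the 5 most variable with a mean count of at least 50, and genes fixed by role. Rpl10a, Rpl3l with Rpl37rt and Rpl6, and the printed sequences were chosen after their values were seen. The motifs CTCGCGAG, GCATGCGC and TGTTCT replaced longer forms whose counts had been seen. Some results that these rules name are not reported here. The members and lists were chosen with earlier results of these data known. Each library is 1 mouse, so the tests set each difference against the spread between libraries of different mice, which includes preparation and counting. Alternatives covered the scaling, the filter, the window at gene ends, the members, the covariates, batches alone or left out, each sex alone, and animal 45 left out.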

Additional observations from a re-analysis of the deposited data

Results flagged for a closer look

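In each group of 7 or 8 libraries, the highest and lowest values of the summed member level, of the members' share of counts, of the start-site minus far-end gap and of the highest peak of 26 role genes were tested for distance from the rest (Dixon's test at the 95% level, critical values 0.526 for 8 and 0.568 for 7 libraries). Of 116 group tests 20 were past the critical value (17.2%), where chance gives about 1 in 20 for a single test, and these tests share the same libraries. Animal 45, a handled female at 0 min, was the high value in 16 of them. Its summed member level was 6071 CPM, with 5193 next in its group, and its gap was 3.59 on the log2 scale, with 3.22 next. The members' share of its total counts, 0.531%, was not past the critical value.

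Among single genes, animal 45 stood above its group at the stalk genes Rplp0 (42.3 CPM, next 30.4) and Rplp1 (22.9). It did so at the small-subunit genes Rpsa (43.3), Rps6 (35.5), Rps19 (122.6) and Rps27a (37.1). The same held at the large-subunit genes Rpl4, at its far end (20.6), Rpl5 (20.1), Rpl10 (41.8) and Rpl26 (17.1). Paralogs with such a value were Rpl3l, at its far end (32.7), Rpl22l1 (24.0), Rpl7l1, at its far end (64.5), and Rpl36al (39.95). In all, 14 of 26 role genes had such a value in animal 45. The share of counts at gene ends was also highest in this library, at 42.1%, and its TMM factor, by which CPM are scaled, was 0.875. The part of either in these values was not tested.

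In other libraries 4 values stood apart. Rpsa was low at 29.7 CPM in animal 56 of the restrained group at 45 min, and Rps27a was low at 21.7 CPM in animal 52 of the handled group at 45 min. Rpl3 was high at 74.9 CPM in animal 1 of the handled group at 45 min, and Rpl11 was high at 23.6 CPM in animal 3 of the restrained group at 0 min.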

How the results depend on the processing

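The count of members passing the test was 0 in every alternative run, and the smallest adjusted p of any member over them was 0.126, for the acute change in handled mice. No paired analysis was possible because each animal number belongs to one group. For 54 named member and comparison pairs, 1193 alternative values were computed; 0 passed, and 22 had the other sign, in 19 of the pairs. These came from single batches or sexes, which hold few mice. For the averaged acute change they were Rps6 in batch 3 (-0.196) and Rps9 in batch 4 (0.0432). For the acute change in handled mice they were Rpl27a in batch 1 (-0.00105) and Rplp1 in batch 4 (-0.123), and in restrained mice Rpl6 in batch 1 (-0.00224) and Rpl7 in batch 3 (0.0714). For chronic restraint at 0 min they were Rpl17 in batch 1 (0.0226), Rpl31 in batch 2 (-0.124) and Rpl26 in batch 4 (-0.0729), and at 45 min Rpl23 in batch 3 (0.0785) and Rpl17 in batch 4 (0.00104) and in males only (0.000732). For the interaction they were Rpl6 (-0.0863) and Rpl27a (0.170) in batch 1, Rpl31 in batch 2 (0.325) and in females only (0.00705), and Rplp1 in batch 4 (0.360). For sex they were Rpl35a in batch 1 (0.191), Rps7 in batches 2 (0.0888) and 4 (0.311), Rps27rt in batch 3 (-0.0251) and Rpl10 in batch 4 (-0.211). Batch 4 alone moved the median member change to -0.117 for chronic restraint, -0.164 for chronic restraint at 45 min and 0.125 for sex. The ratio of member level to other gene ends, 1.34, became 1.16 for peaks that touch a gene end, 1.07 within 2 kb, 0.987 for members near no other gene, 1.04 with the other gene ends limited alike, and 2.96 in CPM per peak. It was 1.42 without Rps23rg1, Rpl37rt and Rpl32l as well; this and the limit on the other gene ends were chosen after seeing the data. The ratio of the spreads, 0.773, became 0.786 within 2 kb, 0.895 for members near no other gene, 0.852 with the other gene ends limited alike, 0.725 without animal 45 and 0.730 with scaling by the total count only. The cause of these shifts was not tested. Depth limits the smallest members: the lowest had a mean of 17.4 counts per library, where counting error alone gave an SD of up to 0.346 on the log2 scale. For the averaged acute change, 299 of all tested peaks passed (188 higher, 111 lower), 681 without animal 45, 438 by DESeq2, 525 by total count only (280 higher, 245 lower) and 538 with scaling to the other gene ends (255 higher, 283 lower). With the share of counts at gene ends or in the highest peaks as a covariate, 1762 (655 higher, 1107 lower) and 1763 (498 higher, 1265 lower) passed. Without batches 1, 2 and 3, 200, 40 and 140 did.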

Other observations

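Among the 64 start sites inside a peak, the 3 with the lowest ratio of observed to expected CpG were those of Rpl3l (0.089), Rpl37rt (0.41) and Rpl6 (0.42), and Rpl11 came next at 0.47. These 3 genes were also the ones whose start-site peak was not highest in animal 45, where it ranked 30, 30 and 8 of 30. Rpl3l, the muscle paralog, held 4.43, 5.18 and 5.66 CPM as the lowest, median and highest of the handled mice at 0 min. Its values in the restrained mice at 45 min were 5.05, 5.81 and 6.16. Rpl37rt held 8.50, 12.1 and 15.5 CPM in the handled mice at 0 min and 11.7, 13.1 and 14.6 in the restrained mice at 45 min. Both ranges overlapped between groups. The coincidence was noticed after the values were seen and was not tested.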
